A study of Mus musculus with 12 samples.

Results

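The 10 genes described here encode the inosine monophosphate (IMP) dehydrogenases Impdh1 and Impdh2, the enzymes of purine synthesis that lead up to them and away from them (Ppat, Gart, Pfas, Paics, Adsl, Atic and Gmps), and the salvage enzyme Hprt. They are 10 of the 25284 genes in the table of counts, and all 10 were among the 15857 genes that passed a filter on low counts. Impdh1 was selected on its higher level in AZ6983 mice, in the same 12 libraries that are described here. Its difference between the groups is therefore given as a description, with no test. The other 9 were chosen by the reaction they catalyse.

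RNA was sequenced from the aorta of male ApoE-/- mice on a C57BL/6 background. ApoE-/- mice lack apolipoprotein E, which clears lipoproteins from blood, and they develop atherosclerosis. From 10 weeks of age all animals were fed a diet rich in fat and cholesterol, and an implanted pump delivered either AZ6983, an agonist of the α7 nicotinic acetylcholine receptor (α7nAChR), at 50 µmol per kg per day (n = 6, mice A1 to A6) or its cyclodextrin vehicle (n = 6, control mice C1 to C6). Treatment lasted 8 weeks, and the thoracic aorta was taken at 18 weeks of age. The libraries were bulk, so a change in the number of cells of a type and a change in RNA per cell cannot be told apart.

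Cells build purine nucleotides on a ribose phosphate. Ppat commits phosphoribosyl pyrophosphate (PRPP) to the pathway, Gart, Pfas, Paics, Adsl and Atic assemble the ring, and the product is IMP. IMP then goes either to AMP or, through IMP dehydrogenase, to xanthosine monophosphate, which Gmps turns into GMP. IMP dehydrogenase is the rate-limiting enzyme of guanine nucleotide synthesis and the target of mycophenolic acid. It is made from a pair of genes, Impdh1 and Impdh2.

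Impdh1 lies on the minus strand of chromosome 6, chr6:29200434-29216364 in GRCm38 (mm10), and no other annotated gene overlaps it. Impdh2 lies on chromosome 9, chr9:108560286-108565584, on the plus strand. RefSeq holds a promoter window, from 250 bases before to 50 bases after the start of transcription, for 9 of the 10 genes. Pfas has no entry. Impdh1 has 2 windows, whose starts lie 4.07 kb apart. The counts are summed over each gene and do not say which start was used. The windows of Impdh1, of Impdh2 and of Paics are printed, since the paralogues are set beside each other below and Paics is the most abundant of the 10. They are given 5′ to 3′ in the direction of transcription, with 2 motifs in capitals: CACGTG, the E-box bound by MYC and related factors, and CCAAT, shown as ATTGG where it lies on the other strand.
Impdh1, chr6:29216315-29216614, minus strand: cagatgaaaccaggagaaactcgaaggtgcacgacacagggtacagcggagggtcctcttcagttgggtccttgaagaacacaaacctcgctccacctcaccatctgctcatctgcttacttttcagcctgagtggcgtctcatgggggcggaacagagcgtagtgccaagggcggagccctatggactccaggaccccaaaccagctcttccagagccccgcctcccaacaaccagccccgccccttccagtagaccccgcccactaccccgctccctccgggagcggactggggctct
Impdh1, chr6:29212248-29212547, minus strand: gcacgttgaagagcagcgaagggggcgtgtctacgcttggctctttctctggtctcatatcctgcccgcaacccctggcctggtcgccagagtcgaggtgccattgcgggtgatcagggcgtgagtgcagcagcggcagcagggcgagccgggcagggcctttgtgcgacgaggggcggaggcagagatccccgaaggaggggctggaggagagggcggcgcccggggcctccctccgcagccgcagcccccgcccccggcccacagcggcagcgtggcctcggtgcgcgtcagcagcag
Impdh2, chr9:108560186-108560485, plus strand: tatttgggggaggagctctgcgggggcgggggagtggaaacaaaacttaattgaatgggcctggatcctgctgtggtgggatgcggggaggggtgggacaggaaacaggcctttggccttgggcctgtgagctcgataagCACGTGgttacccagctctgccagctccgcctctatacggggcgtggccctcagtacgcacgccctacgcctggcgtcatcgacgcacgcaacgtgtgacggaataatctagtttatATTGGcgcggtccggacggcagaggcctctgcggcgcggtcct
Paics, chr5:76951052-76951351, plus strand: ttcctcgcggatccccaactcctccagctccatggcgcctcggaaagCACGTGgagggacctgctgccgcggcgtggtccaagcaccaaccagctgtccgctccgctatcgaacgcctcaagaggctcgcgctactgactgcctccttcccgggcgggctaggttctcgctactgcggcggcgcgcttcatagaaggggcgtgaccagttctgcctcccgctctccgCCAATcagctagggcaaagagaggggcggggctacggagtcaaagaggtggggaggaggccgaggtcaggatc
Neither Impdh1 window held either motif. The Impdh2 window held the E-box with its first base at position -110, counted from the start of transcription, and a CCAAT on the opposite strand at position 8. The Paics window held the E-box at position -203 and CCAAT at position -23. In all, 3 of the 10 windows held the E-box (Impdh2, Paics and Atic) and 4 held CCAAT on either strand (Impdh2, Paics, Atic and Gart). Of all 32851 mouse windows in the same table, 7.15% held the E-box and 37.4% held CCAAT. These matches describe letters only, and binding was not measured.

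Total counts on genes were 23810036 to 35864666 per mouse. Levels are given as CPM, the counts of a gene scaled to the total counts of its library, after TMM scaling, which sets libraries on a common scale. A pair of AZ6983 libraries stood apart. Mouse A4 was rich in thymocyte genes: a list of 12 thymocyte and T cell genes summed to 1240 CPM there, against 9.71 to 50.5 CPM in the other AZ6983 mice and 4.32 to 36.8 CPM in controls, and Rag2, Ptcra and Dntt of that list were at 0 in some mice. A list of 12 proliferation genes summed to 436 CPM in A4, against 68.7 to 102 CPM over the other 11 mice. In A5 the 10 most abundant genes took 30.2% of the counts, against at most 22.1% elsewhere, and brown fat genes summed to 5675 CPM against 2338 to 3045 CPM in the other AZ6983 mice and 2645 to 4426 CPM in controls. The defining smooth muscle genes of the aorta were lowest in A5, at 10513 CPM. They summed to 14336 to 18080 CPM in the other AZ6983 mice and 13537 to 18084 CPM in controls. White fat genes were highest in A5, at 6126 CPM, against 3356 to 4375 CPM in the other AZ6983 mice and 2504 to 5196 CPM in controls. The target of AZ6983, Chrna7, had only 19 to 114 counts per mouse. Apoe had 117 to 311 counts per mouse, and it checks no label because every group carries the deletion.

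Impdh1 had a median of 36.4 CPM in controls (lowest 30.4, highest 43.5) and 101 CPM in AZ6983 mice (lowest 46.6, highest 140). The groups did not overlap, since A1, the lowest AZ6983 mouse, lay above C2, the highest control. The remaining 5 AZ6983 mice stood at 82.0 CPM in A2, 87.6 in A3, 114 in A5, 117 in A4 and 140 in A6. In raw counts the gene had 895 to 1100 in controls against 1255 to 4399 in AZ6983 mice. The mean was 36.1 ± 4.96 CPM (SD, n = 6) in controls against 97.8 ± 32.7 CPM (SD, n = 6) in AZ6983 mice, 2.71 times as high. The log2 fold change was 1.44 with a standard error of 0.212, and it stayed between 1.31 and 1.58 when any 1 mouse was left out. Without both A4 and A5 it was 1.29 (standard error 0.234). The AZ6983 mice differed more among themselves, with a coefficient of variation of 33.5% against 13.7% in controls.

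Groups that do not overlap were found in 65 of the 15857 genes tested, 0.41% of them, and among the members in Impdh1 alone. Nothing is read from that count, because the separation of Impdh1 belongs to the contrast that chose it.

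**Figure D1:**
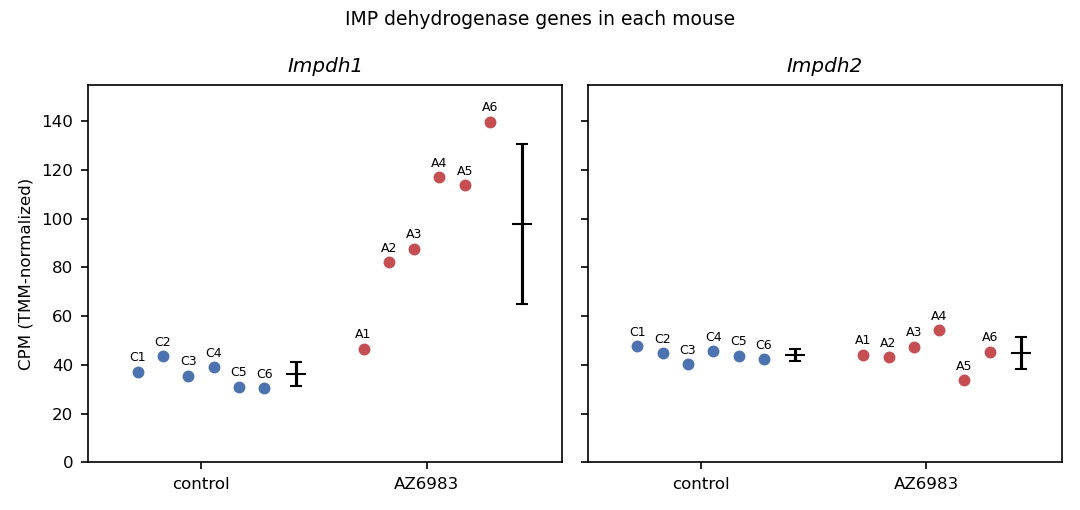
Impdh1 and Impdh2 in each mouse, in TMM-scaled CPM (vertical axis, from 0), with control and AZ6983 mice side by side. Each point is 1 mouse and the bars give the mean and SD of 6 mice. All 6 AZ6983 mice lie above all 6 controls for Impdh1 (46.6 to 140 CPM against 30.4 to 43.5 CPM), while for Impdh2 the groups overlap.

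Impdh2, the paralogue that catalyses the same reaction, had a median of 44.2 CPM in controls (lowest 40.2, highest 47.6) and 44.9 CPM in AZ6983 mice (lowest 33.8, highest 54.1). The groups overlapped, with the highest value in A4 and the lowest in A5. The log2 fold change was 0.02 (standard error 0.0912, 95% interval -0.17 to 0.22, edgeR adjusted p = 0.943), so a change of Impdh2 above 1.17-fold lies outside the interval.

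Divided by exon length, the paralogues can be set beside each other. Impdh1 was at 10.97 ± 1.50 CPM per kb (SD, n = 6) in controls, below Impdh2 at 14.3 ± 0.836 CPM per kb (SD, n = 6). In AZ6983 mice Impdh1 was at 29.7 ± 9.94 CPM per kb (SD, n = 6) and Impdh2 at 14.5 ± 2.14 CPM per kb (SD, n = 6). The share of Impdh1 in the summed level per kb of both genes was 39.8% to 47.6% in controls against 49.6% to 75.9% in AZ6983 mice. It was 49.6% in A1, 63.9% in A2, 63.3% in A3, 66.9% in A4, 75.9% in A5 and 74.2% in A6. Per kb of exon, Impdh2 was thus the higher in every control mouse, and Impdh1 in every AZ6983 mouse but A1, where the paralogues were about level. Exon length was the union of annotated exons, so this order and the shares depend on which transcripts each gene uses, which was not measured. Summed over both genes, the transcript level was 25.3 ± 2.01 CPM per kb (SD, n = 6) in controls against 44.2 ± 10.3 CPM per kb (SD, n = 6) in AZ6983 mice. These sums and shares hold the Impdh1 values that chose the gene, and they are not tested either.

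Gmps, the GMP synthase that uses the product of IMP dehydrogenase, had a median of 106 CPM in controls (lowest 101, highest 116) and 98.3 CPM in AZ6983 mice (lowest 85.5, highest 128). Of the AZ6983 mice, 4 lay below every control and A5 lay above every control. The log2 fold change was -0.09 (standard error 0.0854, edgeR adjusted p = 0.705). Without A5 it was -0.19 (standard error 0.0576, edgeR unadjusted p = 0.00632, edgeR adjusted p = 0.264). In that fit 2049 of 16011 genes tested had an unadjusted p under 0.05. Of the fits with 1 mouse left out it gave Gmps its smallest adjusted p, the largest being 0.819 (edgeR).

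Among the enzymes that build IMP, Ppat, which catalyses the committed first step, was at 14.3 to 18.3 CPM in controls against 13.1 to 19.3 CPM in AZ6983 mice. Its log2 fold change was -0.04 (standard error 0.102, edgeR adjusted p = 0.900). Gart, a protein with several activities in the pathway, was at 41.7 to 48.0 CPM in controls against 41.97 to 49.3 CPM in AZ6983 mice. Its log2 fold change was 0.04 (standard error 0.0533, edgeR adjusted p = 0.776). The groups overlapped for both genes.

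Pfas, which makes formylglycinamidine ribonucleotide, had a median of 20.3 CPM in controls (lowest 19.3, highest 21.5) and 22.7 CPM in AZ6983 mice (lowest 20.4, highest 28.3). It had 4 AZ6983 mice above every control, the most after Impdh1. Its log2 fold change of 0.21 (standard error 0.0798, 95% interval 0.04 to 0.38) was the only one of the other 9 with an unadjusted p under 0.05 in the edgeR fit on all mice. It did not pass the test over all genes (edgeR adjusted p = 0.450), and 10.2% of all genes tested had an unadjusted p that low. The highest values came from A4 at 25.4 CPM and A5 at 28.3 CPM. Without A5 the log2 fold change was 0.13 (edgeR unadjusted p = 0.0684), and without both it was 0.08 (standard error 0.0606, edgeR adjusted p = 0.643).

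Paics, which carries a carboxylase and the next synthetase of the pathway, was at 123 to 148 CPM in controls against 113 to 142 CPM in AZ6983 mice. The log2 fold change was -0.05 (standard error 0.0672, edgeR adjusted p = 0.814), and A2 was the lowest of all mice. Adsl, which acts both in ring assembly and on the AMP branch, was at 29.3 to 33.3 CPM in controls against 29.5 to 33.1 CPM in AZ6983 mice, and its means were the same, 30.7 ± 1.46 CPM and 30.7 ± 1.62 CPM (SD, n = 6 each). The 95% interval of its log2 fold change ran from -0.11 to 0.12 (edgeR adjusted p = 0.995). Atic, which closes the ring, was at 38.5 to 43.7 CPM in controls against 31.1 to 44.2 CPM in AZ6983 mice (log2 fold change -0.03, standard error 0.0799, edgeR adjusted p = 0.909). None of the 3 genes separated the groups.

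Hprt, which returns hypoxanthine and guanine to IMP and GMP, was at 44.4 to 54.0 CPM in controls against 40.9 to 56.2 CPM in AZ6983 mice. Its log2 fold change was -0.05 (standard error 0.0804, edgeR adjusted p = 0.826), and the groups overlapped.

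**Figure D2:**
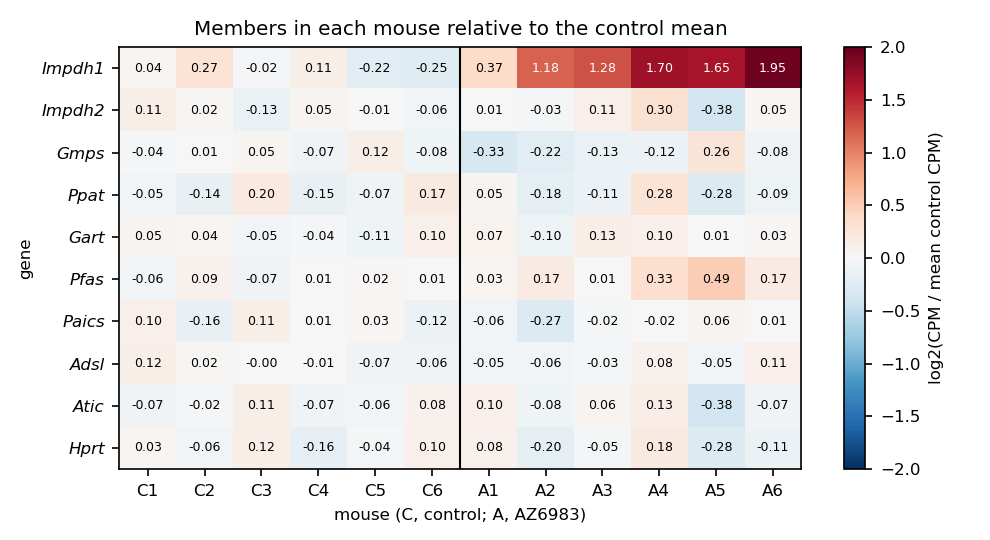
Each of the 10 genes (rows) in each of the 12 mice (columns, controls C1 to C6 and AZ6983 mice A1 to A6), coloured by the log2 ratio of its CPM to the mean of the controls. The Impdh1 row is high in A2 to A6 and less so in A1, and the other rows stay close to the control mean, with the widest departures in A5.

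Of the 9 genes other than Impdh1, 0 passed the 10% false discovery rate (FDR) in edgeR, as did 0 of all 15857 genes tested (0%). With an unadjusted p under 0.05 there was 1 gene in this fit, Pfas, against 10.2% of all genes tested. Their log2 fold changes ran from -0.09 to 0.21, 4 above 0 and 5 below (over all genes tested 52.4% were above 0 and 47.6% below), with a median of -0.03 against 0.009 over all genes. Across the 9 genes the 95% intervals reached at most from 0.827-fold to 1.30-fold, or to 1.17-fold without Pfas. The counts behind them were 320 to 5093 per mouse, and the coefficient of variation was 3.96% to 11.05% in controls against 5.28% to 14.7% in AZ6983 mice. A4 and A5 held many of the extremes. A4 was the highest of 12 mice for Impdh2, Ppat, Atic and Hprt, and A5 was the lowest for those same 4 genes and the highest for Gmps and Pfas. The other extremes, such as the lowest Gmps in A1 and the lowest Paics in A2, fell to other mice. Whether the thymocyte content of A4 or the composition of A5 moves these values was not tested.

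DESeq2 on every gene called 92 of 17592 genes at 10% FDR, 0.523% of them, and Impdh1 was the 1 member among them. As the contrast chose Impdh1, nothing is read from this call.

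Set on the same scale per kb of exon, the 10 genes fell into an order that spanned from Paics to Pfas. In controls Paics was at 43.6 ± 3.30 CPM per kb and Hprt at 38.5 ± 2.81 CPM per kb (SD, n = 6 each), and their ranges overlapped. Impdh2 (14.3), Gmps (13.2) and Impdh1 (10.97 CPM per kb) came next, well below Hprt, with overlapping ranges from each to the next. Gart at 8.74 ± 0.471 CPM per kb (SD, n = 6) overlapped the lowest Impdh1 value. Adsl (5.45) and Atic (5.06 CPM per kb) overlapped each other but neither Gart above nor Ppat below. Ppat at 3.59 ± 0.397 and Pfas at 2.54 ± 0.101 CPM per kb (SD, n = 6 each) closed the order, and their ranges did not overlap. In AZ6983 mice the order was the same but for Impdh1, which stood next after Hprt at 29.7 CPM per kb, with its highest mouse at 42.4 CPM per kb inside the range of Hprt. The deposited counts are per gene, so lengths were taken as the union of annotated exons, and a gene that uses a short transcript is understated.

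**Figure D3:**
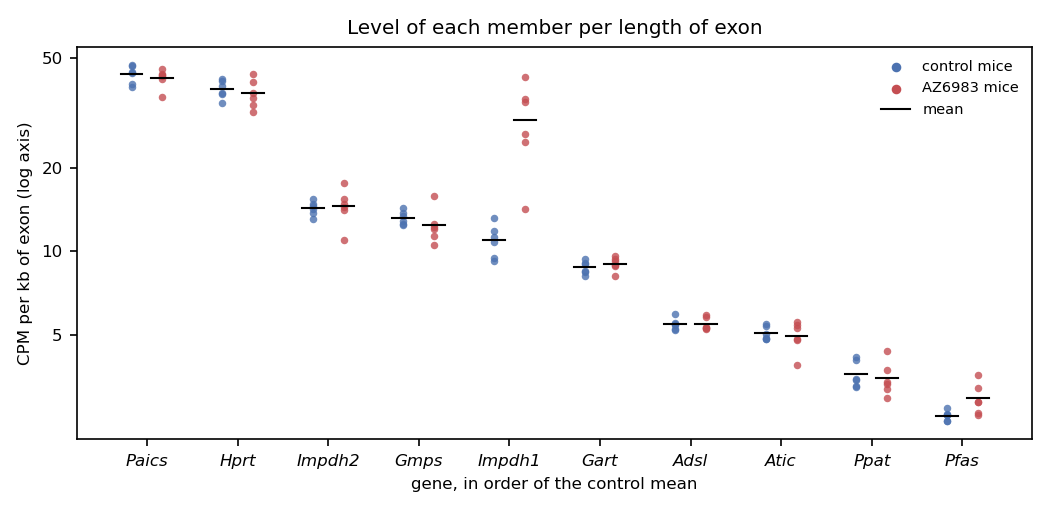
Level of each of the 10 genes per kb of exon (CPM per kb, log axis), ordered by the control mean, in 6 control and 6 AZ6983 mice. Points are mice and the marks give the group means. Impdh1 moves from the middle of the order in controls (10.97 CPM per kb) to the place after Hprt in AZ6983 mice (29.7 CPM per kb), and the other 9 genes keep their places.

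Neighbouring genes on chromosome 6 were read to see whether the stretch around Impdh1 differed. The nearest tested gene past its end, Prrt4, 20.9 kb away, was at 2.28 ± 0.332 CPM in controls against 2.78 ± 0.190 CPM in AZ6983 mice (SD, n = 6 each; log2 fold change 0.29, edgeR adjusted p = 0.478). Next to it Rbm28 had a log2 fold change of -0.06 (edgeR adjusted p = 0.719). On the side of the start, Hilpda, a lipid droplet protein, had -0.13 (edgeR adjusted p = 0.637) and Calu, a calcium-binding protein of the endoplasmic reticulum, had -0.16 (edgeR adjusted p = 0.545). None of the 4 neighbours passed 10% FDR. As 0 of all 15857 genes tested passed in this fit, that cannot decide whether the stretch differed. Prrt4 had an unadjusted p under 0.05 (edgeR unadjusted p = 0.040), as did 10.2% of all genes tested. Rbm28 (0.340), Hilpda (0.223) and Calu (0.103, edgeR unadjusted p for each) did not.

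Some members share transcribed sequence with other genes. Paics and Ppat lie head to head on opposite strands and overlap by 272 bases. Ppat is also covered over 19391 bases by the antisense gene 2310040G07Rik, which had 10 to 34 counts per mouse against 320 to 725 for Ppat. Gart is overlapped by the antisense gene Gm15964, which had 1 to 9 counts. The strand setting of the counting is not given in the sources used here.

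The genes most like Impdh1 across the 12 mice, in log2 CPM as measured, were Spon2 (Pearson r = 0.94), Lpcat3 (0.93), Apoc1 (0.93), Cmah (0.91) and Slc22a23 (0.91), out of 15856 compared. Spon2 encodes a secreted matrix protein, Lpcat3 an enzyme that remodels phospholipids, Apoc1 a lipoprotein component and Slc22a23 a membrane transporter. Over 12 mice these values hold the difference between the groups, so they were also computed with each group's mean removed. The nearest were then Naa25 (0.93), Prr5 (0.93), Gm14057 (0.93), Mlx (0.93) and BC052040 (0.92), with log2 fold changes of 0.03 to 0.38. Of the other members, Pfas was nearest to Impdh1 as measured (r = 0.76) and Hprt farthest (-0.34). With group means removed, Adsl was at 0.59, Pfas at 0.56, Gmps at 0.55, Paics at 0.22 and Impdh2 at 0.06, and Gart was at -0.006, Ppat at -0.20, Hprt at -0.31 and Atic at -0.36. The members thus lay on both sides of 0. All of these points share the same libraries and their depth and scaling, and they are given as a description.

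Other genes of purine and folate metabolism were read from 11 lists. Of the 80 genes found, 78 were tested, and 0 passed 10% FDR in edgeR (0% of all genes). At an unadjusted p under 0.05, 2 were higher and 5 lower, against 7.38% of all genes higher and 2.81% lower. The median log2 fold change was -0.04, with 34 genes above 0 and 44 below, against 52.4% and 47.6% of all genes. Gchfr and Uox had too few counts to be tested.

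Upstream of Ppat, the 5 genes of PRPP synthesis had log2 fold changes of -0.10 to 0.02. The smallest p belonged to Prps1l3 (log2 fold change -0.05, edgeR adjusted p = 0.820), a near copy of Prps1. Reads that map to both genes were set aside and are missing from each. The 7 pentose phosphate genes, which supply the ribose, ran from -0.08 to 0.15, and the smallest p belonged to Pgls (0.14, edgeR adjusted p = 0.598), which was at 0.07 without A5. The folate genes that supply one-carbon units held 1 gene higher and 2 lower at an unadjusted p under 0.05. Mthfd1, which makes the formyl donor used by Gart and Atic, was at 30.2 to 35.9 CPM in controls against 33.4 to 40.4 CPM in AZ6983 mice (log2 fold change 0.17, standard error 0.0595, edgeR adjusted p = 0.450). Mthfd2l, a mitochondrial counterpart, was the 1 gene of all the lists whose groups did not overlap, at 12.9 to 16.1 CPM in controls against 11.8 to 12.6 CPM in AZ6983 mice (log2 fold change -0.20, standard error 0.0689, edgeR adjusted p = 0.450), and it was named after its values were seen. Of all genes 0.41% separated in this way. With library totals in place of TMM scaling the groups overlapped for Mthfd2l too, and with a covariate for the share of reads outside genes its log2 fold change was -0.11.

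On the AMP branch, Ak4, a mitochondrial adenylate kinase, had the smallest p of all the lists. It was at 5.13 to 9.21 CPM in controls (median 6.47) and 3.99 to 5.45 CPM in AZ6983 mice (median 4.56), and 5 of 6 AZ6983 mice lay below every control. The log2 fold change was -0.55 (standard error 0.150, edgeR adjusted p = 0.447). Ak4 passed the threshold in DESeq2 on every gene (DESeq2 adjusted p = 0.0969), as did 0.523% of all genes tested there. It did not pass in DESeq2 on filtered genes (DESeq2 adjusted p = 0.115). Of the guanylate genes, Rrm2b, a ribonucleotide reductase subunit, was lower at an unadjusted p under 0.05 (log2 fold change -0.18, edgeR adjusted p = 0.475). Samhd1, which breaks down deoxynucleotides and was named after its values were seen, was higher at an unadjusted p under 0.05 (log2 fold change 0.14, edgeR adjusted p = 0.483). The 5 tested genes of the route from GTP to tetrahydrobiopterin all had log2 fold changes below 0, from -1.38 for Pcbd1 (edgeR adjusted p = 0.509) to -0.01, against 47.6% of all genes below 0, and 0 had an unadjusted p under 0.05. Pcbd1 had 256 counts in C3 and 17 to 113 in the other controls, and without C3 its log2 fold change was -0.55.

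In the salvage list, Dck, a deoxynucleoside kinase abundant in lymphoid cells, was at 33.4 CPM in A4 and 6.54 to 9.66 CPM in the other AZ6983 mice, against 6.25 to 9.65 CPM in controls. The log2 fold change was 0.60 (edgeR adjusted p = 0.573), and -0.02 without A4. Nt5e, which makes adenosine from AMP, had -0.26 (edgeR adjusted p = 0.504). Tyms, of pyrimidine synthesis, had 0.31 (edgeR adjusted p = 0.586) and was at 11.9 CPM in A4 against 4.22 to 6.90 CPM elsewhere, with a log2 fold change of 0.06 without A4. Slc28a2, a nucleoside transporter, had 0.24 (edgeR adjusted p = 0.611) and 0.09 without A5, and Mycn, of the regulators that include Myc and Mtor, had -0.60 (edgeR adjusted p = 0.450) on 10 to 29 counts per mouse.

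**Figure D4:**
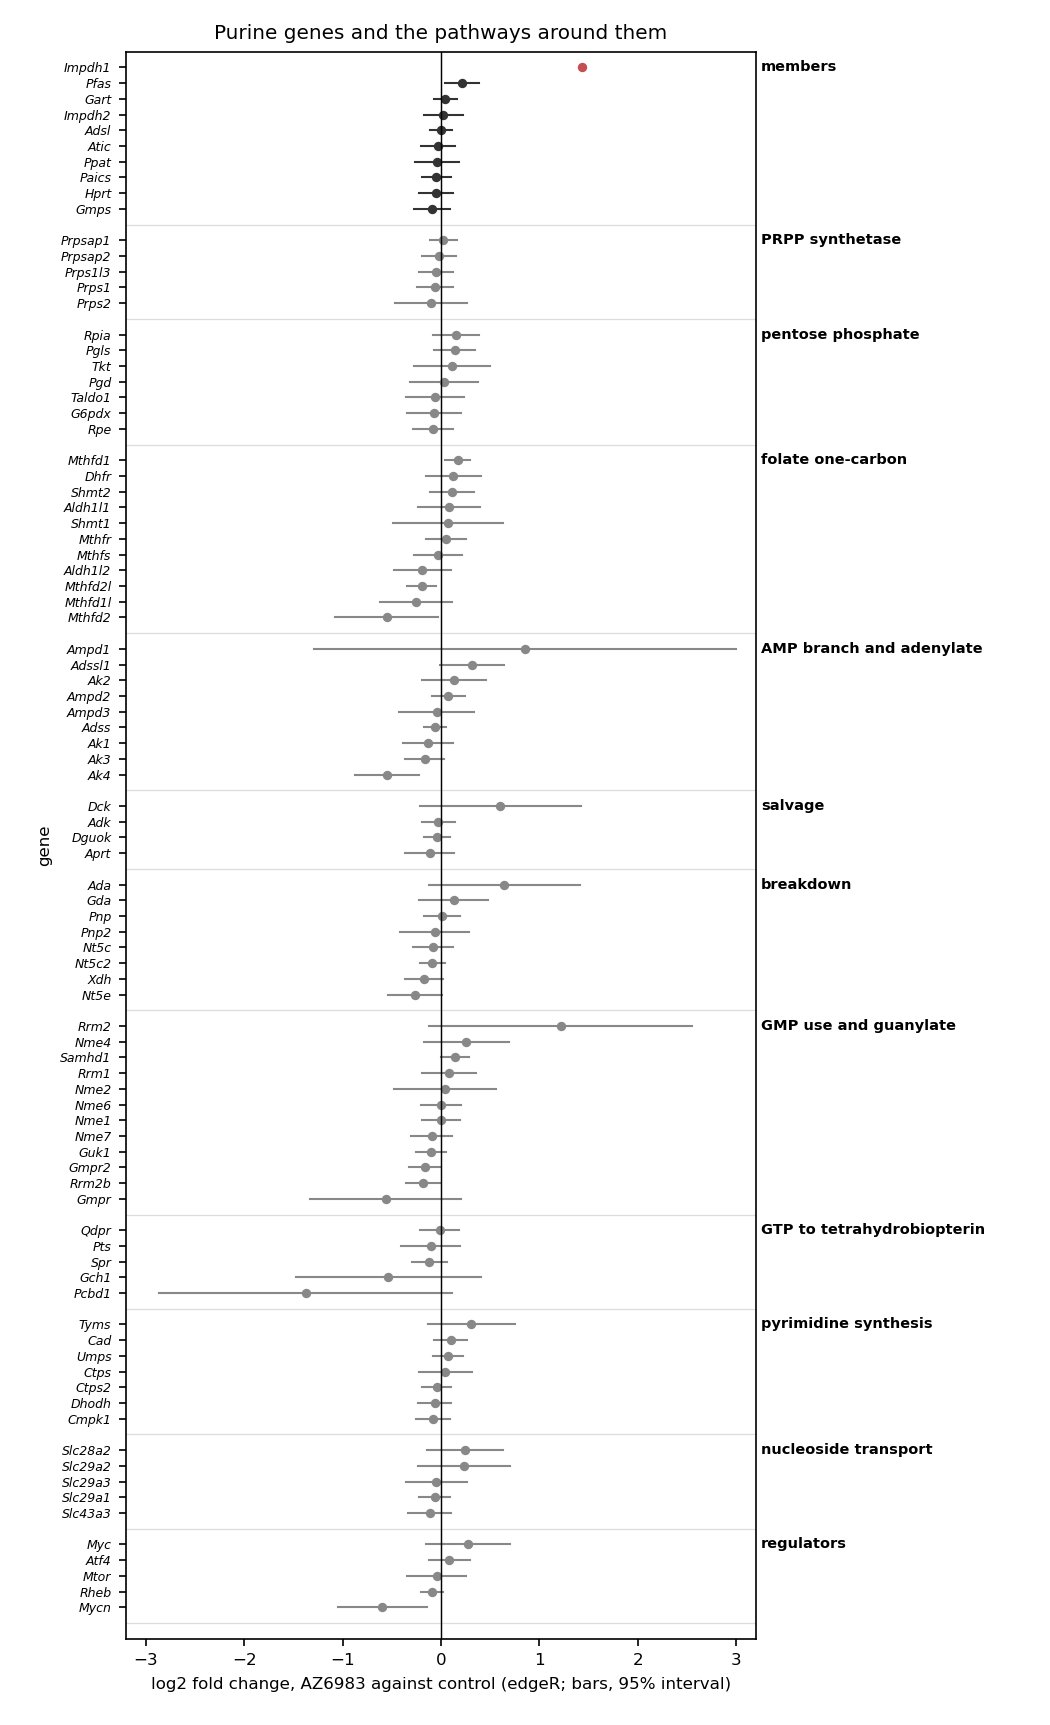
Log2 fold change, AZ6983 against control (horizontal axis), of the 10 members and the 78 tested genes of the surrounding lists, with bars for the 95% interval. Impdh1, drawn without a bar because this contrast chose it, stands at 1.44, and of the other members Pfas is the highest at 0.21. The widest bar, of Ampd1, runs from -1.29 to 2.99.

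Some library measures were shifted between the groups, and the ranges of those given here overlapped. Reads that fell on no gene were 8.02% to 12.7% of the table's reads in controls against 11.2% to 14.9% in AZ6983 mice, which overlapped. With this share as a covariate the log2 fold change of Impdh1 was 1.20 (standard error 0.316). The summed CPM of 8 neutrophil genes, all 8 of which had a log2 fold change above 0 (52.4% of all genes did), was 18.1 to 60.0 in controls against 37.4 to 258 in AZ6983 mice. Of the 8 genes, 0 passed 10% FDR in edgeR and 4 did in DESeq2 on every gene, Ngp, Camp, Ltf and Csf3r, all higher. Over all genes 0% passed in edgeR and 0.523% in DESeq2 on every gene. Neutrophil genes were not alone in being all above 0. So were all tested genes of the proliferation (12), thymocyte and T cell (9), skeletal muscle (7) and erythroid (4) lists, while the other marker lists held genes on both sides of 0. Without A4 the AZ6983 sums reached at most 96.3 CPM for proliferation and 50.5 CPM for thymocyte and T cell genes. DESeq2 on every gene called 0 genes of the proliferation, thymocyte and T cell, skeletal muscle and erythroid lists. It tested only 3 of the proliferation genes and 0 of the thymocyte and T cell genes. Among AZ6983 mice the neutrophil sum was 97.4 CPM in A1, 37.4 in A2, 179 in A3, 120 in A4, 58.8 in A5 and 258 in A6, so A6 was the highest in both the neutrophil sum and Impdh1, while A2 had the lowest neutrophil sum and A1 the lowest Impdh1. No neutrophil gene of the list was at 0 in any mouse. Brown fat genes summed to 3766 to 4426 CPM in 5 controls and 2645 CPM in C6, against 2338 to 3045 CPM in 5 AZ6983 mice and 5675 CPM in A5. Of the 6 genes, 0 passed 10% FDR in edgeR or DESeq2. Macrophage genes overlapped, at 781 to 1314 CPM in controls against 672 to 1288 CPM in AZ6983 mice. The libraries carry numbers 1 to 12 of unstated meaning, with 3 to 7 and 12 for controls and 1, 2 and 8 to 11 for AZ6983 mice. The part of each of these measures in the Impdh1 difference was not tested.

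**Figure D5:**
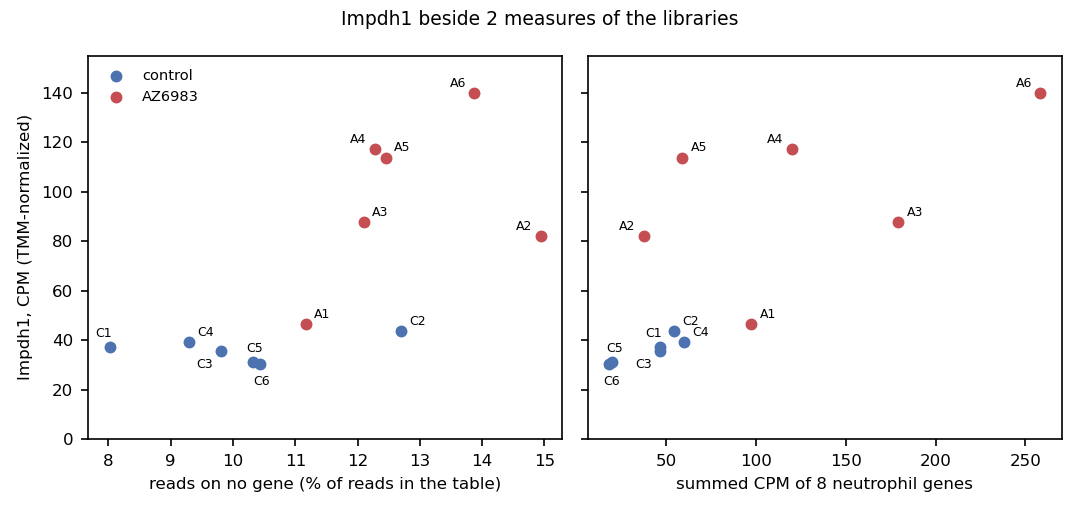
Impdh1 (vertical axis, CPM) in each of the 12 mice against library measures (horizontal axes, each labelled with its unit), with controls and AZ6983 mice in separate colours and each point labelled by mouse. The AZ6983 mice lie above the controls throughout, and A1 is the lowest of them in Impdh1 at 46.6 CPM. The share of reads on no gene lies inside the range of the controls in A1 (11.2%) and also in A3 (12.1%), A4 (12.3%) and A5 (12.5%).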

How the data were processed

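Strand-specific libraries of total RNA depleted of ribosomal RNA were made from 12 aortas and sequenced as paired reads. Per the labels, the submitters' processing notes name CASAVA 1.8.2, STAR 2.5.2b, HTSeq 0.6.1p1 and the build mm10, with no settings. The authors deposited raw counts per gene symbol, and 3 rows that name no gene (8.02% to 14.9% of reads lay outside genes, 18.1% to 23.2% at several places, and 0.606% to 0.698% were of unclear gene) entered neither library sizes nor tests. Reads set aside as mapping to several places are missing from near-identical genes. Genes received 23810036 to 35864666 counts per mouse, and a gene with few counts has a less precise level.

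Groups came from the sample labels. The column of mouse A1 carries 3 of the 4 digits of its number, and the other 11 match in full. The labels give no separate batch or pairing. No pair of libraries was a copy, as a chi-square test over genes gave at least 13.2 per degree of freedom over 66 pairs. Separate animals are replicates.

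AZ6983 was compared with control by edgeR 4.0.16 (R 4.3.3; TMM, filterByExpr, quasi-likelihood test, no covariate, Benjamini-Hochberg over 15857 genes, 10% FDR). The standard error is the absolute log2 fold change over the square root of F. CPM used TMM sizes, and log2 CPM a prior count of 2. Exon lengths and positions came from GENCODE M21 (GRCm38), and promoter windows from RefSeq on GRCm38.p6. Alternatives were RLE or library totals in place of TMM, no filter or a mean of 50 counts, DESeq2 1.42.0 (the tool of the methods) on every gene and on filtered genes, limma-voom (limma 3.58.1) with and without quality weights, a robust fit, 5% FDR, a covariate for the share of reads outside genes, and each mouse left out. Leaving out A4 and A5 together, and counting genes at an unadjusted p, were chosen after seeing the data. The steps were tested on simulated data.

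The members, gene lists and tests were chosen with earlier results of these data known. Genes named were the 10 members, in each list the gene with the smallest p, the 5 genes most like Impdh1 by either measure, and the nearest 2 tested genes on each side of it. Mthfd2l, Samhd1, Rbp4, Ada, Rrm2 and the marker genes of single libraries were named after their values were seen.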

Additional observations from a re-analysis of the deposited data

Results flagged for a closer look

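Single mice stood apart from the rest of their group in 7 of the 80 group values examined, where the gap to the nearest mouse was a large part of the range of the group. Chance flags about 1 in 20 groups, so about 4 of 80, and no cause was tested. Among the 10 genes, Paics was low in A2, at 6.83 log2 CPM against 7.04 to 7.15 in the other AZ6983 mice. Of the surrounding genes, Dck was high in A4, at 5.07 log2 CPM against 2.72 to 3.28. The remaining 5 values were mean log2 CPM of marker lists. Proliferation genes stood at 4.18 and thymocyte and T cell genes at 5.50 in A4, against at most 1.92 and 1.15 in the other AZ6983 mice. Among controls, endothelial genes were low in C6 at 6.61 (others at least 6.81), brown fat genes were low in C6 at 7.37 (others at least 8.03), and white fat genes were high in C2 at 8.01 (others at most 7.46).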

How the results depend on the processing

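Impdh1 kept its direction in each of the alternatives, at 1.20 to 1.45 over those that kept all mice or left out A4 and A5 together (1.29 without that pair), and at 1.31 to 1.58 with 1 mouse left out. In edgeR 0 genes passed 10% FDR, but 2 did with library totals only, 92 in DESeq2 on every gene, 84 in DESeq2 on filtered genes and 4 in limma-voom with quality weights. With 1 mouse left out the count was 0 to 27, with 27 without A5. Among the members 1 gene, Impdh1, was called with library totals, by DESeq2 in both forms and by limma-voom with quality weights, and 0 to 1 with 1 mouse left out (1 without A1 and without A5). At an unadjusted p under 0.05 there were 2, Impdh1 and Pfas, where 10.2% of all genes tested had an unadjusted p that low. As this contrast chose Impdh1, nothing is read from its calls or its direction. Of the surrounding genes DESeq2 on every gene called 1, Ak4, and DESeq2 on filtered genes called 0. Without TMM, 58 of all 15857 genes tested separated the groups. Among them were 2 members, Pfas and Impdh1, which this contrast chose, and Mthfd2l no longer separated them.

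Small log2 fold changes crossed 0. With a covariate for the share of reads outside genes, Ppat was at 0.050, Paics at 0.10, Atic at 0.0044, Hprt at 0.042, Prps1l3 at 0.053 and Rrm2b at 0.0014. Adsl was at -0.0016 with RLE, -0.0072 with library totals, -0.019 with no filter, -0.0072 in DESeq2 on every gene, -0.00027 in DESeq2 on filtered genes and -0.022 without A4 and A5. Atic was at 0.0025 with quality weights, and Slc28a2 at -0.0093 without A4 and A5. With 1 mouse left out, Impdh2 ran from -0.043 to 0.071, Adsl from -0.028 to 0.026, Atic from -0.068 to 0.011 and Dck from -0.020 (without A4) to 0.71. Mycn had no value at the mean of 50 counts, where it is filtered out. The cause of these shifts was not tested. No paired analysis was possible because the labels give the mice no shared replicate numbers.

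With 6 mice a group, the intervals of the 9 genes other than Impdh1 leave room for changes of up to 1.30-fold. Transcripts were measured, not enzyme activity or guanine nucleotides, and the starts of Impdh1 cannot be told apart in counts per gene.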

Other observations

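With group means removed, over 12 mice, Rbp4, the retinol carrier, had the lowest Pearson r of all 15856 genes compared with Impdh1 (-0.92). It was named after its values were seen. Rbp4 was at 70.1 ± 5.80 CPM in controls against 60.2 ± 8.29 CPM in AZ6983 mice (SD, n = 6 each; log2 fold change -0.22, standard error 0.0869, edgeR adjusted p = 0.456).

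Lymphoid nucleotide genes were also high in A4. Ada, which removes adenosine, was at 9.84 CPM in A4 and at most 4.01 CPM in the other AZ6983 mice, with controls at 2.17 to 3.24 CPM. Rrm2, the ribonucleotide reductase subunit of dividing cells, was at 24.6 CPM in A4 and at most 3.32 CPM in the other AZ6983 mice, with controls at 1.97 to 3.12 CPM. Without A4 the log2 fold change was 0.14 for Ada (edgeR adjusted p = 0.829) and -0.10 for Rrm2 (edgeR adjusted p = 0.884), against 0.64 and 1.22 with it.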
